A study of Mus musculus with 10 samples.

Results

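The genes described here encode the respiratory chain and the ATP synthase of mitochondria, in the liver of lactating mice. They were taken by symbol: all genes whose names start with Nduf, Uqcr, Atp5 or Cox4 to Cox8, together with Sdha, Sdhb, Sdhc, Sdhd, Cycs and Cyc1. Of 18193 genes with a probe set of a single gene symbol, 92 were members, read by 184 of the 45037 probe sets tested. A probe set is the group of short array probes that reads 1 transcript, and each gene was represented by its probe set with the highest mean over the 10 arrays. The members divide into 34 complex I subunits, 8 complex I assembly factors, 4 genes of complex II, 9 of complex III, 1 of cytochrome c, 19 of complex IV and 17 of complex V.

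The study compared 2 diets in QSi5 mice, fed through pregnancy up to peak lactation, with 5 livers per diet and 1 Affymetrix expression array per liver. Mice of the HGI group ate a feed of high glycaemic index, of which glucose made up 51.4% by weight, at 15.6 MJ/kg. For the LGI group the same 51.4% was instead a starch that the design text calls high amylase (Hi-Maze), at 16.3 MJ/kg. All HGI mice are labelled with a positive and all LGI mice with a negative energy balance, so diet and energy balance cannot be told apart. The ages of the mice are not given in the sources used here, and no group without a special diet was analysed. Values are log2 signals, and every difference below is HGI minus LGI on that scale, so that a negative value means a lower signal in HGI.

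Mitochondria of liver cells oxidise fuels and pass the electrons along a chain in the inner membrane. Complex I takes them from NADH and complex II from succinate, ubiquinone carries them to complex III, cytochrome c carries them on to complex IV, and complex IV hands them to oxygen. Complexes I, III and IV move protons across the membrane as they work, and complex V, the ATP synthase, makes ATP as the protons flow back. Most subunits are encoded in the nucleus, as all members described here are, and in lactation the liver helps to supply the glucose and lipids that milk needs.

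No member passed an adjusted p under 0.05 in limma's test across all probe sets, where 0.0644% of all probe sets passed in either direction and 0.0266% passed as lower in HGI. Of probe sets with a mean log2 of 10 or more, called bright here, 0.502% passed. The smallest adjusted p of a member was 0.307 (Ndufb3). The members nevertheless lay to one side: 83 of 92 had a difference below 0 and 9 above it, with a median of -0.14 and a range from -0.39 (Ndufaf5) to 0.21 (Cox7c). Over all probe sets the median was -0.02 and 55.8% lay below 0. Among the 1395 bright probe sets, which 67 of the members match in brightness, the median was -0.04 and 57.7% lay below 0. The 67 bright members had a median of -0.15, with 64 below 0.

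At an unadjusted p under 0.05, 27 members (29.3%) were lower in HGI and 0 were higher. Over all probe sets 4.78% were lower and 2.76% higher on that basis, and among the bright probe sets 14.8% were lower and 5.95% higher. The 5 HGI values all lay below the 5 LGI values for 11 members (12.0%), against 1.20% of all probe sets and 4.80% of the bright ones. These 11 were Ndufa7, Ndufa9, Ndufb3, Ndufb8, Ndufb9, Ndufc1, Uqcrc1, Cyc1, Cox5b, Cox7a2 and Atp5md. For 0 members did all HGI values lie above all LGI values, against 0.475% of all probe sets.

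A single array bears on all of these counts. HGI 1 was the lowest of its diet for 68 of 92 members and the lowest of all 10 arrays for 65. Its values had the narrowest spread (SD 2.16 log2, against 2.26 to 2.31 on the other 9 arrays), and bright probe sets outside the respiratory chain were low on it too, with a median deviation from the 10-array mean of -0.21, where the other arrays lay between 0.01 and 0.05. The bright members deviated by -0.28 on HGI 1. On the other HGI arrays they stood at -0.05, 0.02, 0.00 and -0.09 (mice 2 to 5), and on the LGI arrays at 0.10, 0.05, 0.09, 0.11 and 0.04 (mice 1 to 5). Each LGI value was above each HGI value, with HGI 3 (0.021) and LGI 5 (0.038) the closest. HGI 1 held the lowest of these values, so setting it aside cannot make the groups overlap. Without HGI 1 the median of the members was -0.09, with 76 of 92 below 0 and 14 lower at an unadjusted p under 0.05, where 9.75% of the bright probe sets were lower. When the deposited values were quantile normalized again the median was -0.10, with 75 below 0 and 26 lower at an unadjusted p under 0.05 (12.9% of the bright probe sets). Under either treatment fewer than 50% of the bright probe sets lay below 0, namely 47.2% without HGI 1 and 47.6% after normalizing again.

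**Figure D1:**
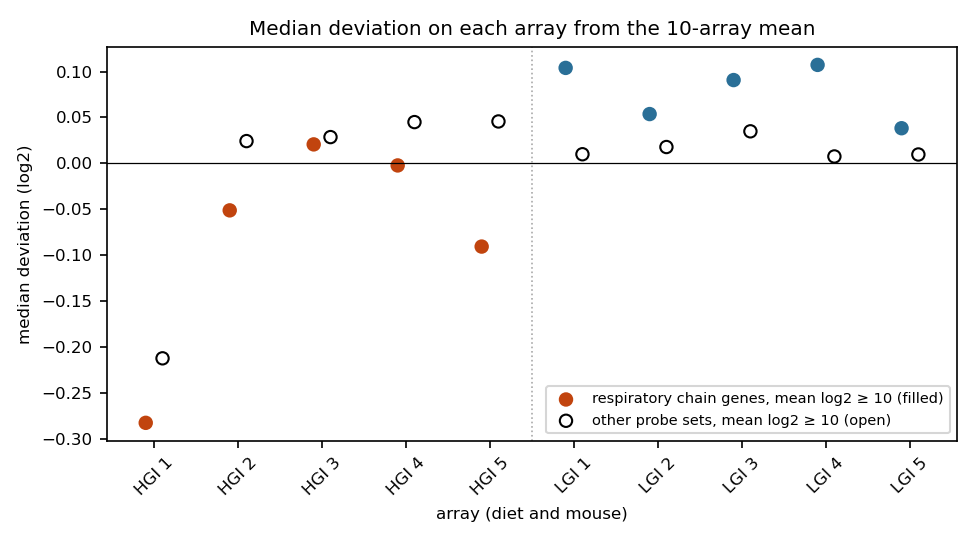
Median log2 deviation of bright probe sets (mean log2 of 10 or more) from their 10-array mean on each array, for respiratory chain genes (filled) and for all other probe sets (open). HGI 1 is low for both, and on the remaining arrays the respiratory chain genes lie between -0.09 and 0.02 in HGI and between 0.04 and 0.11 in LGI.

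**Figure D2:**
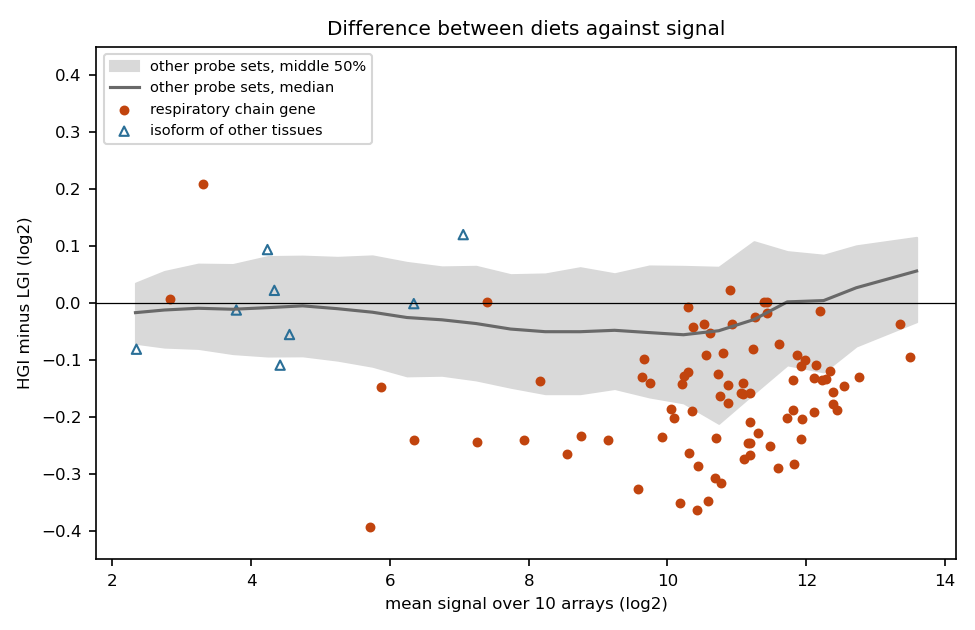
Difference between the diets (HGI minus LGI, log2) against mean signal for the 92 respiratory chain genes, with the median and middle 50% of all other probe sets in bins of signal. Most members of high signal lie below the median of the other probe sets, and the 8 isoforms typical of other tissues (triangles) lie on both sides of 0.

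**Figure D3:**
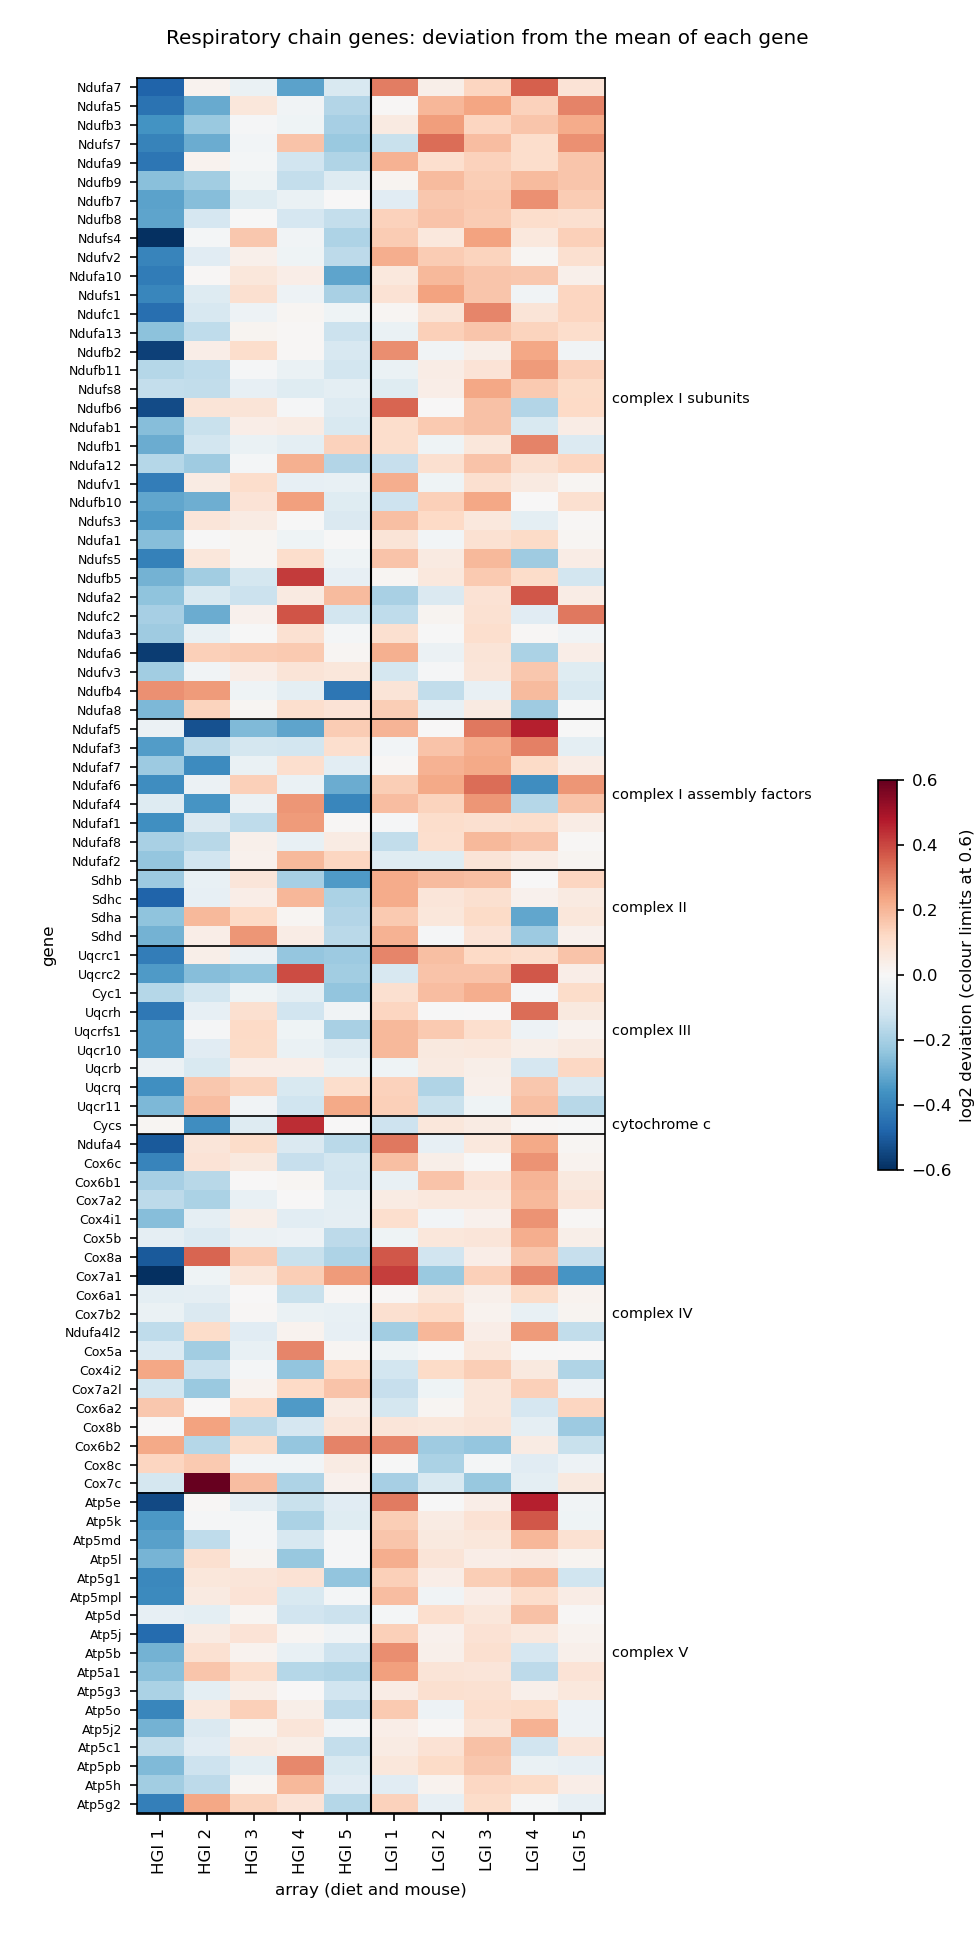
Log2 deviation of each member (rows, by complex and then by difference) from its own mean on each of the 10 arrays (columns). The HGI 1 column is blue for most rows, the LGI columns are mostly red, and HGI 4 is high for a few rows such as Cycs, Uqcrc2, Ndufb5 and Ndufc2.

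The promoters of 75 members were held in the RefSeq table used here (GRCm38.p6, 250 bases before to 50 after each annotated start, 80 promoters in all), and 17 members had no entry there. Both strands were searched for 3 motifs known from nuclear genes of the respiratory chain: GCGCA, any 1 base and GCGC for NRF1, CCGGAAG for ETS factors such as GABP, and AANATGGCG for YY1. The NRF1 motif was found for 17 of the 75 members (22.7%), against 5.19% of all 27025 genes in the table. The ETS motif was found for 19 members (25.3%) against 9.93%, and the YY1 motif for 10 (13.3%) against 2.76%. None of the 3 was found for 35 members. The median diet difference was -0.10 for members with the NRF1 motif and -0.15 for those without, -0.16 and -0.14 for the ETS motif, and -0.21 and -0.14 for the YY1 motif. These medians lie close to each other beside the range of the members, and a match is a run of letters, not a measured binding site. For each complex the promoter of the member with the smallest p among those with a match is printed, with the matched motif in capitals.
Ndufa5 (complex I, chr6:24527477-24527776, minus strand, NRF1 motif; the windows of both its 2 annotated starts hold a match, and 1 is printed): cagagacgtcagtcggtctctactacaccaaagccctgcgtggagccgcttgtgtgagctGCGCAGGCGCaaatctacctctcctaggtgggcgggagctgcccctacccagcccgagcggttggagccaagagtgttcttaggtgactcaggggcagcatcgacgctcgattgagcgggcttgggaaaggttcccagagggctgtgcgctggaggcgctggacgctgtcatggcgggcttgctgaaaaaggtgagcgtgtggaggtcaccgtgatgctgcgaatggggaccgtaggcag
Sdhb (complex II, chr4:140961021-140961320, plus strand, ETS motif): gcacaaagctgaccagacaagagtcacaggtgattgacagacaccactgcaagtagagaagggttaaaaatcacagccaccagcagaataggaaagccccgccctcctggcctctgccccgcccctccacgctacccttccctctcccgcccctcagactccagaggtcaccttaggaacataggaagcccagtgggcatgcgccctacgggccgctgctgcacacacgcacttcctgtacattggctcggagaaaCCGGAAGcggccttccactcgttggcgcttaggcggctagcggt
Uqcrc1 (complex III, chr9:108936398-108936697, plus strand, NRF1 motif found 2 times, the first on the opposite strand): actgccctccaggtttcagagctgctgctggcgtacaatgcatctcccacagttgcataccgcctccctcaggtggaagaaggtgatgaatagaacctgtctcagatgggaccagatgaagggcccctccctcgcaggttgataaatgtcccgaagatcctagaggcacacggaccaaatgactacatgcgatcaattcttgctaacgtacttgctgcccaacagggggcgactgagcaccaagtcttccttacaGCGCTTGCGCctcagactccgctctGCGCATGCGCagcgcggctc
Cox6b1 (complex IV, chr7:30626065-30626364, minus strand, ETS motif on the opposite strand): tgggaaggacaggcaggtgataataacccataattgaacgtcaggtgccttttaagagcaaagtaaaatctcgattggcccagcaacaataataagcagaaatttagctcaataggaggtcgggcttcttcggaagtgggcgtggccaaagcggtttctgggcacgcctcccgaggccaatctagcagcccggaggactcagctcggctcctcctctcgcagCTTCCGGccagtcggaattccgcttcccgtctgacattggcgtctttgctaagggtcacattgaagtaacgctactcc
Atp5md (complex V, chr19:47090598-47090897, minus strand, ETS motif on the opposite strand): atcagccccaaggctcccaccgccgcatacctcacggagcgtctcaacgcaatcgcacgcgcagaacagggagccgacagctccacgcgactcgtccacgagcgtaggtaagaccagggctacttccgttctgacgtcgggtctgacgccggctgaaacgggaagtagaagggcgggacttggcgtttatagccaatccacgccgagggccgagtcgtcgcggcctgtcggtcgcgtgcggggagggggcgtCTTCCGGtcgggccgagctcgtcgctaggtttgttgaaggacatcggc
The matches of Sdhb, Uqcrc1 and Atp5md lie in the 50 bases after the annotated start, and those of Ndufa5 and Cox6b1 lie before it.

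Complex I is the NADH dehydrogenase. Of its 34 subunits, 32 lay below 0 with a median of -0.19. At an unadjusted p under 0.05, 16 (47.1%) were lower in HGI, against 14.8% of bright probe sets. Without HGI 1 the median was -0.12, with 31 below 0 and 8 lower on that basis, where 9.75% of bright probe sets were lower. After normalizing again the median was -0.13, with 30 below 0. The peripheral arm that binds NADH (N module, 9 genes) had a median of -0.14, the part that reduces ubiquinone (Q module, 5 genes) one of -0.29, and the membrane arm (20 genes) one of -0.17. Without HGI 1 these were -0.12, -0.21 and -0.09. The differences between modules were not tested.

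Ndufb3, an accessory subunit of the membrane arm, had the smallest p of all members. Its signals were 9.21, 9.35, 9.57, 9.55 and 9.37 in HGI mice 1 to 5 and 9.63, 9.82, 9.70, 9.74 and 9.79 in LGI mice 1 to 5. The highest HGI value lay just below the lowest LGI value, and the means were 9.41 ± 0.15 against 9.74 ± 0.08 (SD, n = 5 each). The difference was -0.33 ± 0.09 (SE), or 20.3% lower in HGI (adjusted p = 0.307, limma), and -0.28 without HGI 1.

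Ndufb9, another membrane arm subunit, read 11.57, 11.61, 11.79, 11.68 and 11.74 in HGI mice 1 to 5 and 11.84, 12.01, 11.97, 12.01 and 11.99 in LGI mice 1 to 5. The groups did not overlap, and LGI 1 stood apart as the lowest LGI value. The difference was -0.28 ± 0.08 (SE, adjusted p = 0.314, limma), and -0.26 without HGI 1. Its second bright probe set stood at -0.25 (adjusted p = 0.630). Ndufb8, also of the membrane arm, read 10.87, 11.09, 11.19, 11.09 and 11.05 in HGI mice 1 to 5 and 11.33, 11.36, 11.34, 11.30 and 11.29 in LGI mice 1 to 5. The LGI values lay close together and all above HGI. The difference was -0.27 ± 0.08 (SE, adjusted p = 0.377).

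In the N module, Ndufa7, an accessory subunit, showed the largest difference of any complex I subunit. Its signals were 9.95, 10.45, 10.39, 10.11 and 10.34 in HGI mice 1 to 5 and 10.74, 10.47, 10.56, 10.79 and 10.51 in LGI mice 1 to 5, with the highest HGI value just below the lowest LGI value. The difference was -0.36 ± 0.11 (SE, adjusted p = 0.412), and -0.29 without HGI 1. Its 4 other probe sets stood between -0.33 and -0.28. The core subunits Ndufv1, which binds NADH and the flavin, Ndufv2 and Ndufs1, which hold iron-sulphur clusters, stood at -0.14, -0.25 and -0.24 (adjusted p = 0.814, 0.533 and 0.584), and at -0.06, -0.18 and -0.17 without HGI 1. The 2 other Ndufv1 probe sets stood at -0.23 and -0.31 (adjusted p = 0.570 and 0.454).

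In the Q module, Ndufa5, an accessory subunit, ran from 9.73 in HGI 1 to 10.24 in HGI 3 and from 10.18 in LGI 1 to 10.47 in LGI 5. HGI 3 lay above LGI 1, so the groups overlapped by that pair. The difference was -0.35 ± 0.10 (SE, adjusted p = 0.400), and its second probe set stood at -0.22 (adjusted p = 0.701). Ndufa9, at the junction with the membrane arm, read 10.01, 10.47, 10.43, 10.33 and 10.27 in HGI mice 1 to 5 and 10.65, 10.54, 10.59, 10.55 and 10.61 in LGI mice 1 to 5. HGI 1 was lowest, and the LGI values lay close together above all HGI values. The difference was -0.29 ± 0.09 (SE, adjusted p = 0.454), and -0.21 without HGI 1. Of the core subunits that carry electrons to ubiquinone, Ndufs7 stood at -0.31, Ndufs8 at -0.19 and Ndufs3 at -0.12 (adjusted p = 0.572, 0.602 and 0.824), and at -0.25, -0.17 and -0.06 without HGI 1. All 6 core subunits measured lay below 0, with a median of -0.21, and -0.17 without HGI 1.

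The remaining complex I subunits lay between -0.27 (Ndufb7) and 0.02 (Ndufa8). Among them Ndufa10, Ndufa13 and Ndufc1 of the membrane arm stood at -0.25, -0.20 and -0.24 (adjusted p = 0.624, 0.575 and 0.615), and at -0.17, -0.17 and -0.15 without HGI 1. For Ndufc1 all HGI values lay below all LGI values. Ndufb11, the subunit with the highest probe-set signal, stood at -0.19 ± 0.08 (SE, adjusted p = 0.589). The probe set of Ndufb4 had a signal below the median of every array in both diets (2.84 ± 0.29 against 2.83 ± 0.14), and its difference was 0.01. Probe sets differ in how strongly they bind, so these signals rank no gene against another.

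The 8 complex I assembly factors help build the complex and are not part of it. Of these 7 lay below 0, with a median of -0.24 that was -0.18 without HGI 1. At an unadjusted p under 0.05, 3 (37.5%) were lower, against 4.78% of all probe sets and 14.8% of bright ones. Without HGI 1 it was 1, where 9.75% of bright probe sets were lower. The 8 had mean signals of 5.71 to 9.64, and no share was taken over probe sets of that signal. Ndufaf5, an enzyme that modifies the core subunit Ndufs7, had the largest difference of all members and read 5.68, 5.19, 5.45, 5.40 and 5.87 in HGI mice 1 to 5 and 5.91, 5.72, 6.03, 6.18 and 5.71 in LGI mice 1 to 5. The groups overlapped, since HGI 5 lay above LGI 2 and LGI 5. The difference was -0.39 ± 0.13 (SE, adjusted p = 0.488), and -0.43 without HGI 1. Ndufaf7, a methyltransferase, stood at -0.24 ± 0.10 (SE, adjusted p = 0.578), and Ndufaf3 and Ndufaf4, which act together early in assembly, at -0.24 and -0.23 (adjusted p = 0.589 and 0.727). Ndufaf8 stood at -0.13 ± 0.09 (SE, adjusted p = 0.806) and Ndufaf2 at 0.00.

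**Figure D4:**
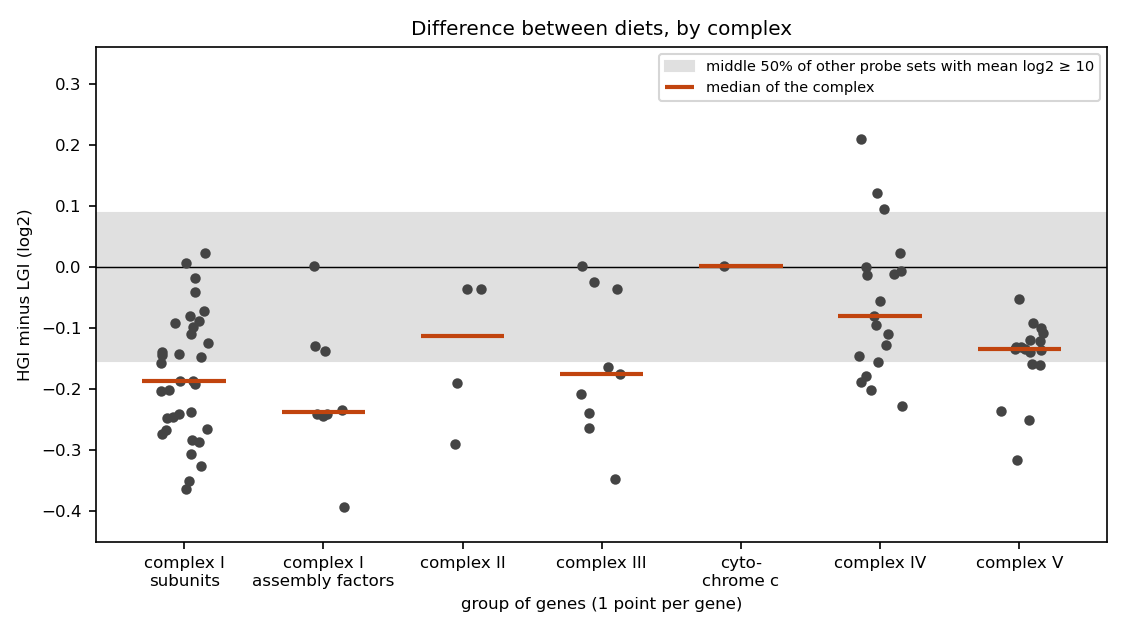
Difference between the diets (HGI minus LGI, log2) for each gene, by complex, with the median of each complex as a bar and the middle 50% of bright probe sets outside the respiratory chain shaded. The medians run from -0.24 for the complex I assembly factors to -0.08 for complex IV, with the single gene of cytochrome c at 0.00. Complex IV includes dim probe sets, and its median was -0.14 once those with a mean log2 under 6 were left out.

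Complex II, succinate dehydrogenase, also works in the tricarboxylic acid cycle. Its 4 genes lay below 0 with a median of -0.11, which was -0.04 without HGI 1 and also -0.04 after normalizing again. Only 1 of the 4 (25%), Sdhb, was lower at an unadjusted p under 0.05, against 14.8% of bright probe sets. Without HGI 1, 2 of the 4 lay above 0 (Sdha at 0.02 and Sdhd at 0.03). Sdhb, the iron-sulphur subunit, read 11.38, 11.55, 11.67, 11.40 and 11.26 in HGI mice 1 to 5 and 11.82, 11.79, 11.78, 11.60 and 11.73 in LGI mice 1 to 5. HGI 3 lay above LGI 4, and the other HGI values lay below all LGI values. The difference was -0.29 ± 0.09 (SE, adjusted p = 0.437), -0.27 without HGI 1 and -0.31 without HGI 1 and LGI 4.

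Sdha, the flavoprotein subunit, gave different values at its 2 bright probe sets, which had nearly equal mean signals. The one used here read 10.69, 11.13, 11.05, 10.94 and 10.76 in HGI mice 1 to 5 and 11.09, 11.00, 11.04, 10.62 and 11.00 in LGI mice 1 to 5, with LGI 4 the lowest of all, and a difference of -0.04 ± 0.11 (SE, adjusted p = 0.972). The other read 10.49, 10.86, 10.93, 10.81 and 10.79 in HGI mice 1 to 5 and 10.92, 11.17, 11.02, 11.00 and 11.12 in LGI mice 1 to 5, where LGI 4 was not low, and its difference was -0.27 ± 0.09 (SE, adjusted p = 0.509). This was the widest gap between probe sets of 1 member: 37 members had at least 2 probe sets within 2 log2 units of the brightest, and the median gap among them was 0.08. For 32 of the 37 all such probe sets lay below 0. Sdhc and Sdhd, the membrane anchors, stood at -0.19 ± 0.11 (SE, adjusted p = 0.759) and -0.04 ± 0.11 (SE, adjusted p = 0.972). Without HGI 1 Sdhc stood at -0.09, and its second probe set stood at -0.05 with all arrays (adjusted p = 0.958).

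Complex III passes electrons from ubiquinol to cytochrome c. Of its 9 genes 8 lay below 0, with a median of -0.18 (-0.11 without HGI 1). At an unadjusted p under 0.05, 2 (22.2%) were lower with or without that array. Of bright probe sets 14.8% were lower, and 9.75% without HGI 1. Uqcrc1, a core protein of the complex, read 10.16, 10.61, 10.55, 10.35 and 10.36 in HGI mice 1 to 5 and 10.87, 10.76, 10.70, 10.68 and 10.75 in LGI mice 1 to 5. The groups did not overlap, and HGI 1 was the lowest value. The difference was -0.35 ± 0.09 (SE), or 21.4% lower in HGI (adjusted p = 0.312), and -0.29 without HGI 1.

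Cyc1, the cytochrome c1 that delivers electrons to cytochrome c, read 11.76, 11.82, 11.90, 11.87 and 11.69 in HGI mice 1 to 5 and 12.02, 12.11, 12.14, 11.92 and 12.04 in LGI mice 1 to 5. The lowest LGI value, of mouse 4, lay just above the highest HGI value. HGI 1 was not the lowest here, and the difference of -0.24 ± 0.08 (SE, adjusted p = 0.459) was -0.23 without it. Uqcrfs1, the Rieske iron-sulphur protein, stood at -0.18 (adjusted p = 0.723) and Uqcrh, the hinge protein, at -0.21 (adjusted p = 0.704). Without HGI 1 these were -0.11 and -0.13, and the other Uqcrh probe set, of similar signal, stood at -0.05 (adjusted p = 0.945). Uqcrc2, the second core protein, stood at -0.26 (adjusted p = 0.706), with HGI 4 at 10.70 against 9.97 to 10.10 on the other HGI arrays. The other Uqcrc2 probe set stood at -0.21 (adjusted p = 0.549). Uqcrb, Uqcrq and Uqcr11, small accessory subunits, stood at -0.04, -0.02 and 0.00.

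Cycs, cytochrome c itself, had the same mean in both diets (11.43 ± 0.29 against 11.43 ± 0.08, SD, n = 5 each). Its signals were 11.45, 11.06, 11.35, 11.87 and 11.43 in HGI mice 1 to 5 and 11.31, 11.50, 11.48, 11.44 and 11.43 in LGI mice 1 to 5. The HGI values spread to both sides of the LGI values, with HGI 2 lowest and HGI 4 highest of all 10. The difference was 0.00 ± 0.12 (SE, adjusted p = 0.999), with a 95% interval of -0.26 to 0.27, which also covers the sizes seen for most other members. Its next brightest probe sets stood at -0.06 and -0.13 (adjusted p = 0.945 and 0.896).

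**Figure D5:**
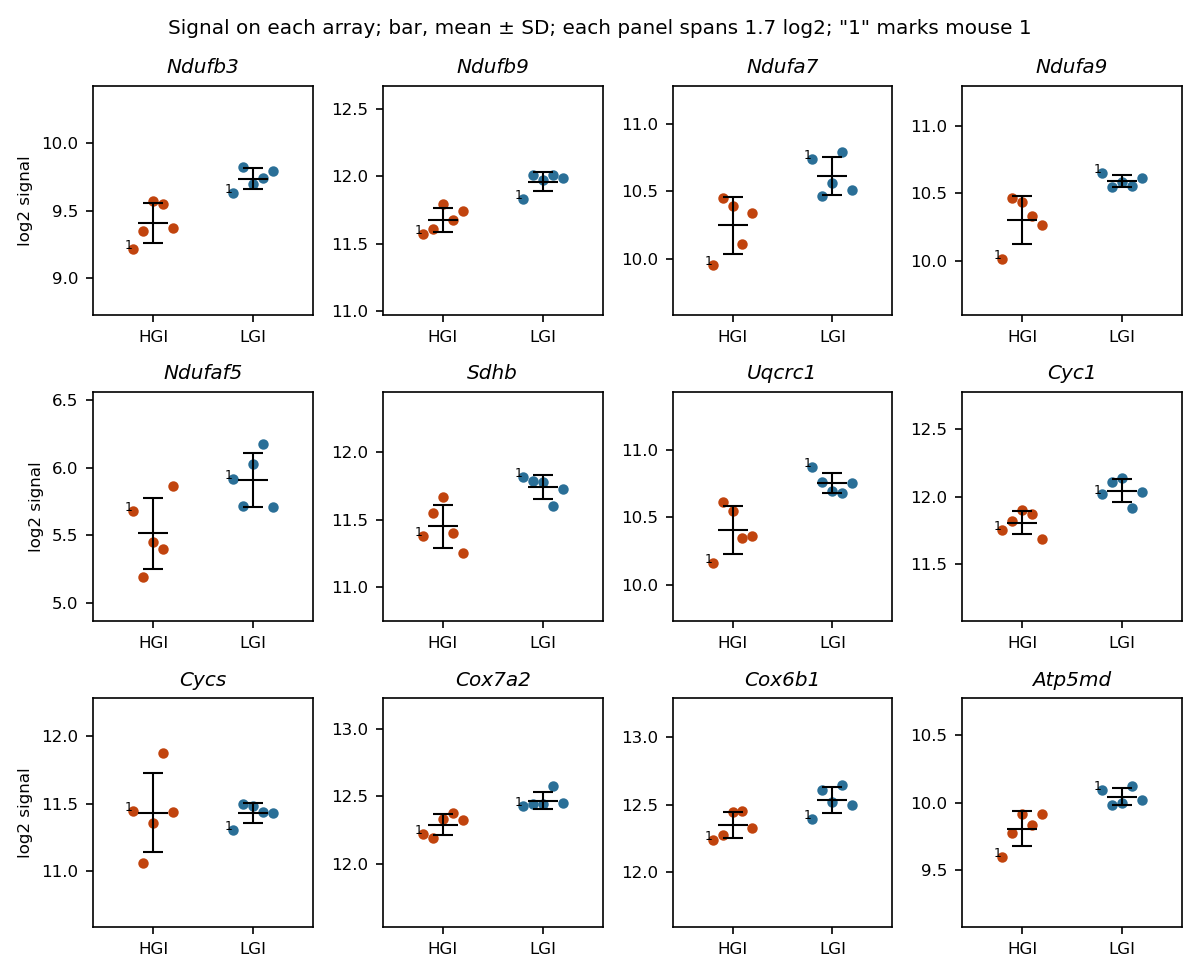
Log2 signal on each array for 12 members, HGI left and LGI right, with mean ± SD (n = 5) and mouse 1 of each diet marked; all panels span the same log2 range. The groups separate for Ndufb3, Ndufb9, Ndufa7, Ndufa9, Uqcrc1, Cyc1, Cox7a2 and Atp5md and overlap for Ndufaf5, Sdhb, Cycs and Cox6b1.

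Complex IV is cytochrome c oxidase, and differences between complexes were not tested. Of its 19 genes 15 lay below 0, with a median of -0.08 (-0.04 without HGI 1). At an unadjusted p under 0.05, 2 (10.5%) were lower, and 1 without HGI 1. Of bright probe sets 14.8% were lower, and 9.75% without HGI 1, while of all probe sets 4.78% were lower. Several complex IV genes come as pairs, a common form and one typical of other tissues such as muscle, lung or testis. The 8 isoforms of other tissues had a median of -0.01, with 5 below 0. With dim probe sets (mean log2 under 6) left out, the complex IV median was -0.14 and the complex V median -0.13. Cox7a2, the common form of subunit VIIa, read 12.22, 12.19, 12.33, 12.38 and 12.32 in HGI mice 1 to 5 and 12.43, 12.44, 12.44, 12.58 and 12.45 in LGI mice 1 to 5. LGI 4 was above the other LGI values, the groups did not overlap, and the difference was -0.18 ± 0.07 (SE, adjusted p = 0.592). Its second probe set stood at -0.20 (adjusted p = 0.600).

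Cox6b1, the common form of subunit VIb, read 12.24, 12.27, 12.44, 12.45 and 12.33 in HGI mice 1 to 5 and 12.40, 12.61, 12.52, 12.64 and 12.50 in LGI mice 1 to 5. HGI 3 and HGI 4 lay above LGI 1, and the difference was -0.19 ± 0.08 (SE, adjusted p = 0.624). Cox5b, which binds zinc, ran from 12.39 to 12.52 in HGI and from 12.52 to 12.76 in LGI, so the groups separated by less than the last digit shown. Its difference was -0.15 ± 0.07 (SE, adjusted p = 0.704). Cox6c stood at -0.20, Cox4i1, the common form of subunit IV, at -0.16, and Ndufa4, named for complex I but assigned to complex IV, at -0.23 (adjusted p = 0.701, 0.728 and 0.713). Without HGI 1 these were -0.13, -0.11 and -0.13. Cox6a1 stood at -0.09 and Cox8a at -0.13, the latter -0.02 without HGI 1. Cox5a (-0.01) and Cox7a2l, a factor that joins complexes into supercomplexes (-0.01), stood near 0 at the probe sets used. Their probe sets within 2 log2 units of the brightest ran from -0.17 to -0.01 for Cox5a and from -0.09 to -0.01 for Cox7a2l.

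Of the 8 forms typical of other tissues 2 had a mean below the median of every array in both diets. These were Cox4i2 (3.78 ± 0.19 against 3.79 ± 0.14, SD, n = 5 each) and Cox7b2 (2.31 ± 0.03 against 2.39 ± 0.07). Cox6b2, Cox8b, Cox7a1 and Ndufa4l2 were little brighter, with means of 4.24, 4.33, 4.42 and 4.55. The array medians ran from 3.91 to 3.97. Cox6a2 and Cox7a1, the heart and muscle forms of subunits VIa and VIIa, stood at 0.00 and -0.11 (adjusted p = 0.999 and 0.945). Cox8b, Cox6b2 and Cox8c stood at 0.02, 0.09 and 0.12, and Ndufa4l2 at -0.06 (adjusted p = 0.981, 0.924, 0.773 and 0.950). Of 8 markers of skeletal and heart muscle 5 lay below every array median, and their mean level ran from 3.40 to 3.48 in HGI and from 3.42 to 3.51 in LGI. The probe set of Cox7c, which had the highest difference of all members (0.21, adjusted p = 0.774), was also below every array median, and HGI 2 was highest at 3.90. Second probe sets of Cox7c and Cox8c both stood at -0.01.

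Complex V is the ATP synthase. All 17 genes lay below 0 (16 without HGI 1), from -0.32 (Atp5e) to -0.05 (Atp5g2), with a median of -0.13 (-0.08 without HGI 1). At an unadjusted p under 0.05, 3 (17.6%) were lower, and 1 without HGI 1. Of bright probe sets 14.8% were lower, and 9.75% without HGI 1. The complex V share with all arrays is thus near that of bright probe sets. Atp5md, a small membrane subunit also called DAPIT, read 9.60, 9.77, 9.92, 9.83 and 9.92 in HGI mice 1 to 5 and 10.09, 9.99, 9.99, 10.12 and 10.02 in LGI mice 1 to 5. HGI 1 was lowest, the groups did not overlap, and the difference was -0.24 ± 0.08 (SE, adjusted p = 0.504), and -0.18 without HGI 1.

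Atp5e, the epsilon subunit of the central stalk, read 10.23, 10.77, 10.71, 10.63 and 10.70 in HGI mice 1 to 5. In LGI mice 1 to 5 it read 11.08, 10.77, 10.81, 11.23 and 10.75. HGI 1 and LGI 4 lay at the 2 ends, and the difference of -0.32 ± 0.13 (SE, adjusted p = 0.575) was -0.15 without both. Atp5k, a subunit of the membrane part, stood at -0.25 ± 0.10 (SE, adjusted p = 0.561), and -0.14 without both. The alpha and beta subunits that form ATP, Atp5a1 and Atp5b, stood at -0.13 and -0.13 (adjusted p = 0.838 and 0.813), and at -0.09 and -0.08 without HGI 1. Atp5c1 and Atp5d, also of the central stalk, stood at -0.11 and -0.14. The c-ring, which turns as protons pass, is encoded by 3 genes for the same mature protein, and Atp5g1, Atp5g2 and Atp5g3 stood at -0.16, -0.05 and -0.13 (adjusted p = 0.805, 0.960 and 0.737). Without HGI 1 they stood at -0.08, 0.04 and -0.10. The mean of both Atp5g1 probe sets, of which the second is dim, stood at -0.011. The other 7 genes, of the membrane part and the peripheral stalk, lay between -0.16 (Atp5l) and -0.09 (Atp5h) at the probe sets used. Second probe sets of Atp5pb, Atp5j2, Atp5h and Atp5o, of similar signal, lay outside that range, at -0.32, -0.20, -0.07 and 0.06.

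By array, the mean deviation of the 34 complex I subunits was -0.33, -0.08, 0.02, 0.03 and -0.09 in HGI mice 1 to 5 and 0.07, 0.08, 0.14, 0.09 and 0.08 in LGI mice 1 to 5. The groups thus did not overlap for this mean. Complex III had -0.30, -0.02, 0.02, -0.03 and -0.07 in HGI and 0.12, 0.05, 0.08, 0.12 and 0.04 in LGI. Its groups did not overlap either, with HGI 3 just below LGI 5. Complex V had -0.31, 0.01, 0.04, -0.02 and -0.10 in HGI and 0.13, 0.04, 0.09, 0.10 and 0.01 in LGI, where HGI 3 lay above LGI 5. Complex II had HGI 3 at 0.12 and LGI 4 at -0.13, so that the groups crossed. Complex IV deviated by -0.14 on HGI 1 and by -0.06 to 0.11 elsewhere. These means are descriptions of chosen genes and carry no test.

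Related gene lists outside the respiratory chain were read at the same fit, and none had a member past an adjusted p under 0.05. Among all probe sets 4.78% were lower and 2.76% higher at an unadjusted p under 0.05, among bright ones 14.8% and 5.95%. Of 39 further assembly factors 34 lay below 0, with a median of -0.10 (-0.05 without HGI 1), and 10 were lower at an unadjusted p under 0.05. Nubpl, which brings iron-sulphur clusters to complex I, stood at -0.34 ± 0.09 (SE, adjusted p = 0.270), and Uqcc1, of complex III assembly, at -0.38 ± 0.11 (SE, adjusted p = 0.340). Of 13 tricarboxylic acid cycle genes 12 lay below 0, with a median of -0.23 (-0.16 without HGI 1), and 7 were lower and 1 higher at an unadjusted p under 0.05. Suclg1, a subunit of succinyl-CoA ligase, stood at -0.36 ± 0.08 (SE, adjusted p = 0.206) and Suclg2 at -0.27 ± 0.09 (SE, adjusted p = 0.461). The 1 above 0 was Cs, citrate synthase, at 0.35 ± 0.12 (SE, adjusted p = 0.507).

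Of 11 ubiquinone synthesis genes 8 lay below 0, with a median of -0.17 (-0.11 without HGI 1). At an unadjusted p under 0.05, 4 were lower, against 4.78% of all probe sets and 14.8% of bright ones. Coq4 stood at -0.35 ± 0.07 (SE, adjusted p = 0.159), with all HGI values below all LGI values, and Coq6 at -0.29 ± 0.10 (SE, adjusted p = 0.468). Of 17 regulators of mitochondrial gene expression 14 lay below 0, with a median of -0.11 (-0.03 without HGI 1), and 2 were lower on that basis. Twnk, the helicase of mitochondrial DNA, stood at -0.20 and Tfb2m, a mitochondrial transcription factor, at -0.24 (adjusted p = 0.651 and 0.655). Chosen after their values were seen, Ppargc1a, the coactivator known for driving these genes, stood at -0.19 ± 0.30 (SE), Nrf1 at 0.00 ± 0.14 (SE) and Tfam at -0.13 ± 0.11 (SE, adjusted p = 0.940, 1.00 and 0.852). ND5, a subunit of complex I encoded by mitochondrial DNA and the single such gene measured, stood at 0.09 ± 0.12 (SE, adjusted p = 0.921).

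The livers expressed hepatocyte markers strongly in both diets (Alb 14.69 ± 0.02 against 14.69 ± 0.02, SD, n = 5 each). Of the 5 such markers measured, Cps1 stood at -0.19 ± 0.09 (SE, adjusted p = 0.650) and Tat at -0.26 ± 0.12 (SE, adjusted p = 0.672), about as low as many respiratory chain genes, while Apoa1, Ttr and Alb stood at 0.11, 0.03 and 0.00. The mean of the 5 ran from 13.80 to 13.94 in HGI and from 13.73 to 14.01 in LGI. Markers of several other cell types stood above 0, none of them past the adjusted threshold. All 8 Kupffer cell and macrophage markers were above 0 (median 0.29), with mean levels of 7.64 to 8.53 in HGI and 7.37 to 8.12 in LGI, and 0 of them below the array medians. All 6 markers of sinusoidal endothelium were above 0 (median 0.22), with 6.39 to 7.05 in HGI and 6.16 to 6.49 in LGI and 1 below the array medians. The 4 erythroid markers measured were above 0 (median 0.72), with 5.29 to 5.98 in HGI and 4.32 to 5.29 in LGI and 2 below the array medians. Markers of adipocytes, brown fat, bile duct and stellate cells had medians between -0.04 and 0.05. The part of these cell types in the respiratory chain values was not tested, and in RNA of whole liver fewer hepatocytes and less RNA per hepatocyte cannot be told apart.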

How the data were processed

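RNA of 10 livers was labelled with biotin and read on Affymetrix arrays, 1 per mouse, per the labels. The authors deposited log2 values per probe set; the tools listed for this step, per the submitters' processing notes, are RMA and R 2.6.1. RMA forces arrays towards 1 distribution, so a shift of most transcripts together would be lost. No genome build is given in the sources used here. Of 45101 probe sets, 64 controls were left out and 45037 tested. Symbols came from the platform annotation, updated through RefSeq gene IDs (GRCm38.p6; 0 changed): 34945 probe sets had 1 symbol, 932 several and 9160 none. Another 10 probe sets that list a member's symbol beside others were not used as members, and 8 symbols under the naming rule occur on those alone.

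HGI was compared with LGI in limma 3.58.1 (R 4.3.3; lmFit, eBayes, no covariate), with Benjamini-Hochberg adjustment over all probe sets, and every adjusted p is limma's. SE and SD are on the log2 scale. The procedure was tested on simulated data with planted differences larger than that of any member. That test therefore does not cover differences of the sizes seen for the members. Named members were those with the smallest p in each complex, the highest and lowest signal, isoform pairs and electron carriers; further members are given as values. Members and lists were chosen with earlier results of these data known. Nothing says how the mice were housed or paired, and 5 arrays per diet limit the precision. Alternatives were filters on dim probe sets, normalizations, variance models, array weights, other probe sets per gene, a replicate block, and leaving out arrays.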

Additional observations from a re-analysis of the deposited data

Results flagged for a closer look

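Among 100 groups of 5 arrays (44 members and 6 complex means, in each diet), 7 held an array far from the other 4, where chance alone gives about 5. The low ones were Ndufb9 on LGI 1 (11.84, against 11.97 to 12.01 on the others), Sdha on LGI 4 (10.62, against 11.00 to 11.09), Atp5e on HGI 1 (10.23, against 10.63 to 10.77) and Cox7a1 on HGI 1 (3.70, against 4.39 to 4.67). The high ones were Cox7a2 on LGI 4 (12.58, against 12.43 to 12.45) and Uqcrc2 on HGI 4 (10.70, against 9.97 to 10.10). The mean deviation of the complex I subunits on LGI 3 was also high (0.14, against 0.07 to 0.09). Cox7a1 stood at 0.06 without HGI 1, against -0.11 with it.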

How the results depend on the processing

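Under all 21 alternatives 0 members passed the adjusted threshold; the smallest adjusted p of a named member was 0.190. Members lower at an unadjusted p under 0.05 numbered 27, and 14 without HGI 1 and LGI 4. Leaving out 1 array gave 14 (HGI 1) to 34 (HGI 4). Of bright probe sets 14.8% were lower with all arrays and 9.75% without HGI 1. That share was not taken with other arrays left out or with the replicate block, so those counts have no background beside them. All complex medians stayed below 0, but their sizes moved. They ran from -0.21 to -0.12 for the complex I subunits and from -0.17 to -0.04 for complex II. Of 913 values of the 44 named members under the alternatives 43 took the other sign, in 11 members whose main values were at most 0.13 in size. Over all probe sets 29 passed; 63 passed when quantile normalized again, 17 with median centring, 64 with array weights and 58 without HGI 1 and LGI 4, and leaving out 1 array gave 5 (LGI 2, LGI 3 or LGI 5) to 49 (HGI 3), with 7 without HGI 5 and 15 without HGI 4. The cause was not tested. With the replicate number as a block 33 passed, with 0 members, and 28 members were lower at an unadjusted p under 0.05. Deviations of same-numbered arrays correlated between -0.13 and 0.04, so no strong shared deviation was seen. This cannot settle whether the numbers pair the mice, which nothing in the sources states. Signals below every array median limit what can be read of Cox7c, Ndufb4, Cox4i2 and Cox7b2. Cox6b2, Cox8b, Cox7a1 and Ndufa4l2, close above the array medians, are limited as well.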
